A study of Homo sapiens with 15 samples.

Results

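Bulk RNA sequencing of 2 sublines of VCaP, an established cell line from a prostate cancer vertebral metastasis, was compared: the 3 libraries labelled VCaP-CT against the 3 labelled VCaP-T, 6 of the 15 libraries of the series. The members were chosen by their sample titles, and every gene with enough counts was tested. The question was which transcriptional programs stood lower and which stood higher after long culture with little testosterone, before any antiandrogen was given. VCaP carries the TMPRSS2-ERG fusion and responds to androgens.

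VCaP-T was grown for 7 months with 10 nM testosterone in medium with charcoal-stripped serum, and its label calls it sensitive to androgen. VCaP-CT was taken from VCaP-T and kept for a further 10 months at 0.1 nM testosterone, which the study used as its model of androgen deprivation. The treatment label of the VCaP-CT samples gives 10 nM testosterone for those months, whereas the treatment protocol and the study's Methods give 0.1 nM, so the dose rests on the latter. Neither subline received enzalutamide or bicalutamide. The other 3 sublines, named VCaP-CT-BR, VCaP-CT-BR-ER and VCaP-CT-ER, were derived from VCaP-CT under these antagonists and served to estimate the spread between libraries. Each subline is described as 1 derivation, so the withdrawal of testosterone, the added months in culture and the derivation cannot be told apart. The study calls the 3 replicates of a subline biological, and neither its labels nor its Methods say from which cultures they came, so that p values measure the spread between libraries of 1 derivation.

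Testosterone, or dihydrotestosterone made from it, acts on transcription through androgen response elements, which are opened by pioneer factors such as FOXA1 and HOXB13. In luminal prostate cells this induces secreted kallikreins, transporters and lipid enzymes and represses a smaller set of genes. Androgen signalling also supports protein secretion and the amino acid supply on which secretion draws, and its loss has been studied as a route to other cell identities, among them neuroendocrine ones.

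Between 33665716 and 42395919 fragments were counted on genes in the 6 libraries, so that the floor of 3 counts corresponded to 0.0708 to 0.0891 counts per 1000000 counted fragments (CPM). This floor, every bound taken from it and every exact interval of a ratio of summed counts cover counting error only. Pearson correlations of log2 CPM across 15255 genes, which are not independent replicates, lay between 0.9952 and 0.9975 within a subline and between 0.9476 and 0.9501 across the 2 sublines. The 10 most abundant genes held 10.0 to 10.1% of a VCaP-T library and 8.13 to 8.34% of a VCaP-CT library, and transcripts of the mitochondrial genome held 8.16 to 8.39% and 7.18 to 7.60%. All 14 markers of luminal prostate cells and VCaP were measured in both sublines. Fibroblast markers summed to 12.03 to 14.03 CPM in VCaP-T and 13.7 to 14.8 CPM in VCaP-CT, with COL1A2 at 0 counts in all 6 libraries, and endothelial markers summed to 64.0 to 77.9 and 44.4 to 55.6 CPM, with KDR at 0 counts. Basal epithelial markers summed to 21.6 to 23.7 CPM in VCaP-T and 2.29 to 2.84 CPM in VCaP-CT, all but a trace of it from KRT15 and KRT14. Leukocyte markers summed to 45.4 to 59.3 and 1.59 to 2.26 CPM, in VCaP-T nearly all of it LYZ, which shares 33.96% of its exons with other genes, while PTPRC, CD3E and CD3D had no count. Whether these markers bear on the results beside them was not tested. In bulk samples a smaller share of cells that express a gene and less RNA per cell cannot be told apart.

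The change was broad. Of 19621 genes tested with edgeR's quasi-likelihood test and Benjamini-Hochberg adjustment, 6502 (33.1%) were higher and 6319 (32.2%) lower in VCaP-CT at an adjusted p under 0.05, 65.3% in all. Libraries of the 2 sublines did not overlap for 13071 genes (66.6%). Because so much of the transcriptome passed, a further test asked which genes changed by more than 2-fold. It called 826 genes (4.21%) higher and 1612 (8.22%) lower, 12.4% in all, and the lower genes thus outnumbered the higher ones although the direction of all calls was nearly even. Among protein-coding genes the same test called 533 higher and 1296 lower. The median log2 fold change, given throughout as VCaP-CT minus VCaP-T, was 0.026 over all genes tested, and the central 90% of genes lay between −2.07 and 1.37.

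**Figure D1:**
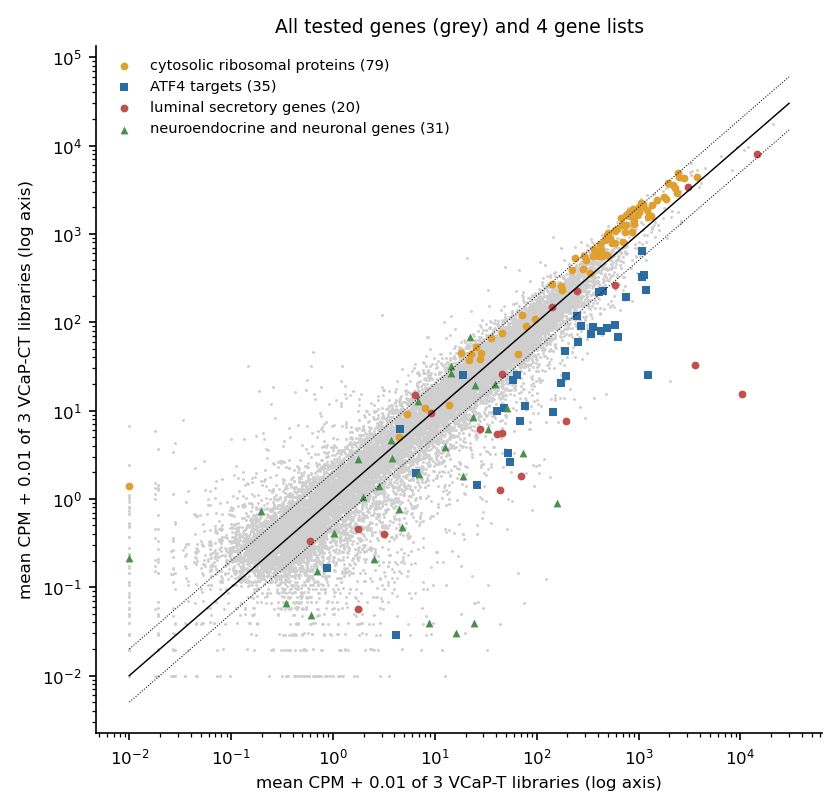
Mean CPM of each tested gene in the 3 VCaP-T libraries (x axis, log scale) against that in the 3 VCaP-CT libraries (y axis, log scale), with the line of equality and dotted lines at a 2-fold difference. Grey points are all 19621 genes, and coloured points are members of 4 lists: most of the 35 ATF4 genes and the 20 secretory genes lie under the lower dotted line, and the cytosolic ribosomal protein genes, of which 75 of 79 rose, form a narrow band above equality.

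Lists of genes of known function differed widely in direction. Leaving out the short lists of cell type markers, the lowest medians were those of the ATF4 targets (−2.14), luminal secretory genes (−2.07), neuroendocrine and neuronal genes (−1.72) and mesenchymal genes (−1.25). At the other end stood the MHC class I genes (0.76, 11 of 22 tested), cytosolic ribosomal proteins (0.72), prostate long noncoding RNAs (0.42) and S phase genes (0.40). HLA-B, HLA-C, TAP1 and TAP2 were not among the tested MHC class I genes, and B2M fell. CALR, CANX and PDIA3 of that list are general chaperones of the endoplasmic reticulum. These medians describe the lists beside the 0.026 of all genes, and no test was made of a list. Member counts below stand beside the shares over all tested genes. These were 33.1% higher and 32.2% lower, and 4.21% and 8.22% by more than 2-fold. Members named below that no rule of size or level picked were chosen after their values were seen.

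**Figure D2:**
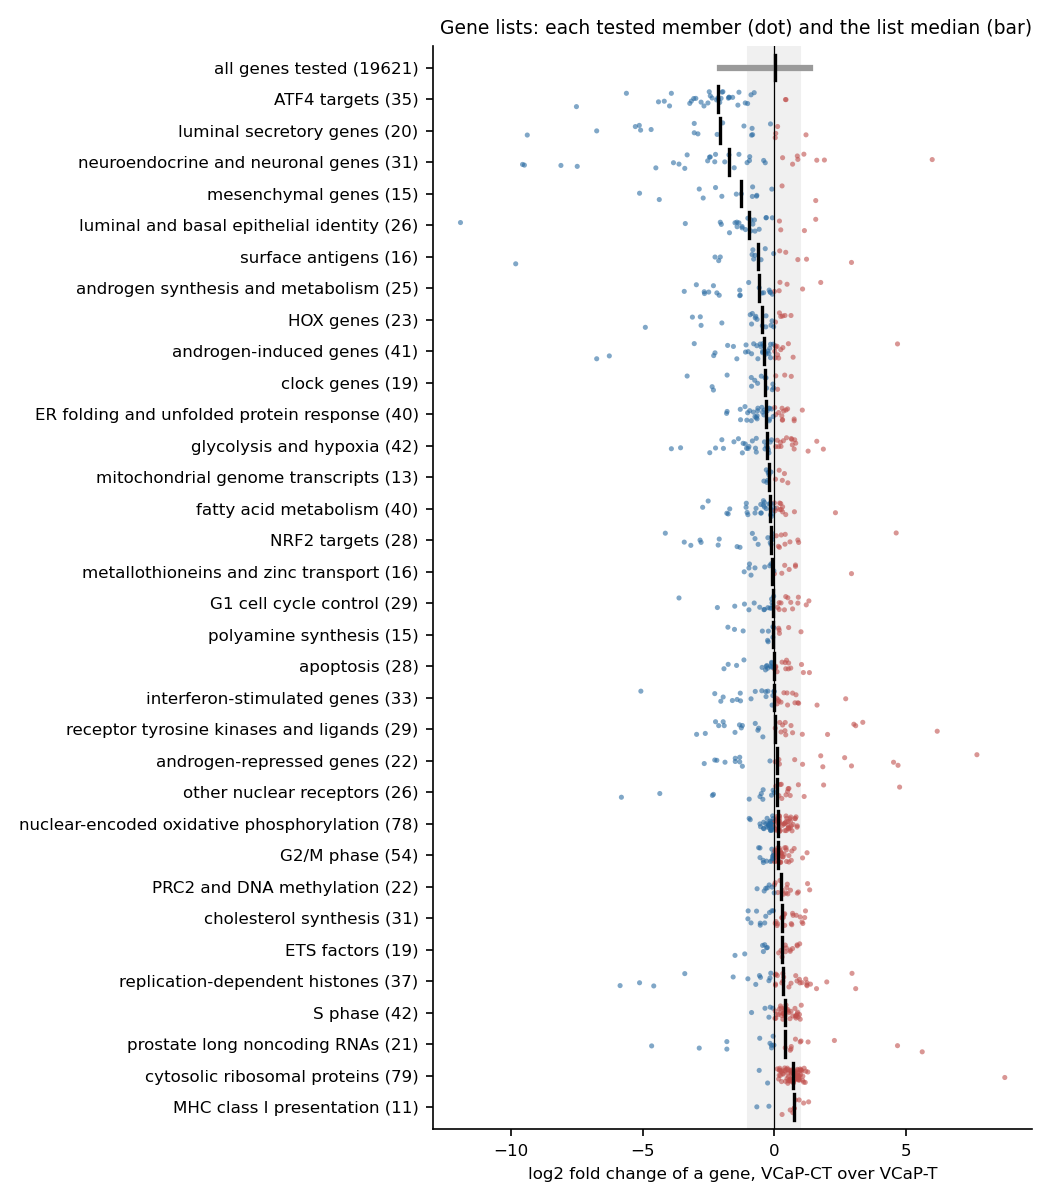
Log2 fold change (x axis, VCaP-CT over VCaP-T) of every tested member of each gene list (dots, red above 0 and blue below), with the list median as a black bar and the number of tested members in brackets. The grey bar in the top line spans the 5th to 95th percentile of all 19621 genes, and the shaded band covers changes under 2-fold: the ATF4 and secretory medians lie left of it, while the S phase and ribosomal protein members cluster inside it to the right of 0.

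Androgen-induced genes as a group were lower in VCaP-CT, but by very unequal amounts. Of 41 tested members, 25 fell and 7 rose, 8 fell and 1 rose by more than 2-fold, and the median was −0.40. Their summed level went from 36537 to 36872 CPM in the VCaP-T libraries down to 21740 to 22729 CPM in the VCaP-CT libraries. Most of that loss in the sum came from KLK2 and KLK3. KLK3, the gene of prostate-specific antigen at chr19:50854915-50860764, stood at 3617, 3532 and 3532 CPM in the VCaP-T libraries and 32.6, 34.5 and 32.3 CPM in the VCaP-CT libraries. All VCaP-CT libraries lay far below all VCaP-T libraries, a fall of 107-fold (log2 fold change −6.75 ± 0.06 (SE), adjusted p = 1.3e-25). KLK2, its neighbour and closest paralog at chr19:50861568-50880567, stood at 14767, 14387 and 14148 CPM in the VCaP-T libraries and 8059, 8235 and 7590.0 CPM in the VCaP-CT libraries. Again the groups did not overlap, but the fall was 1.81-fold (log2 fold change −0.86 ± 0.05 (SE), adjusted p = 1.92e-12). Per kilobase of annotated exon, KLK2 was at a mean of 2257 CPM before and 1245 CPM after deprivation, in VCaP-T and VCaP-CT respectively. KLK3 was at 767 and 7.15 CPM on the same scale. The 2 genes are similar in sequence, and reads that fit both could be split or lost in counting.

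The bases before the start of KLK3 and KLK2 are shown because these neighbours carry nearly the same androgen response element and differed so much in how far they fell. Both windows of 250 bases come from RefSeq (GRCh38.p14, plus strand, chr19:50854665-50854914 and chr19:50873189-50873438), and capitals mark the element. RefSeq starts KLK2 further downstream than the counting annotation does, so that its window lies inside the gene as placed above.
KLK3: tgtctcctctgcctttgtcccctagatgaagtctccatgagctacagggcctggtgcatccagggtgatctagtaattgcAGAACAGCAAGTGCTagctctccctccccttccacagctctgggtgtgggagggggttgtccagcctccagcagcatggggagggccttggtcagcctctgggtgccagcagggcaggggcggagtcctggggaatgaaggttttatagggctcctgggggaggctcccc
KLK2: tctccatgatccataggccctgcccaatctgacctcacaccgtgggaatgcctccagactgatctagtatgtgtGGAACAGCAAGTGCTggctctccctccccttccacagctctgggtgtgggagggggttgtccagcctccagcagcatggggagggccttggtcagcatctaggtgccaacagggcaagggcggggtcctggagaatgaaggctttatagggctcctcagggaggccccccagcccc
The element reads AGAACAGCAAGTGCT from 170 to 156 bases before the start of KLK3 and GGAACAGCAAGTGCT from 176 to 162 bases before that of KLK2, which differ by A1G, counted from the 5′ end of the element with the KLK3 base first. With the elements aligned, 185 of 244 bases (75.8%) of the 2 windows were equal. Searched on both strands, the string of AGAACA, any 3 bases and AGTGCT was found before 7 of 27305 genes (0.0256%), and before 1 of 29 androgen-induced genes with a window (KLK3), while that of GGAACA, any 3 bases and AGTGCT was found before 5 of 27305 (0.0183%). The hexamer TGTTCT, whose reverse complement AGAACA opens the KLK3 element, was before 4 of the 29 androgen-induced genes (13.8%: KLK3, PMEPA1, TRPM8 and TRPV6), 11.3% of the 12263 tested genes with a window, 13.8% of the genes over 2-fold lower and 14.1% of those over 2-fold higher. A match is a string of letters and not evidence of binding.

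Other transporters and enzymes of the androgen program fell as well. STEAP4, a metalloreductase of the plasma membrane, stood at 129, 140.0 and 136 CPM in the VCaP-T libraries and 2.02, 1.54 and 1.68 CPM in the VCaP-CT libraries, without overlap (log2 fold change −6.27 ± 0.12 (SE), adjusted p = 4.84e-20). TMPRSS2, the serine protease whose promoter drives the ERG fusion, stood at 645, 633 and 676 CPM in the VCaP-T libraries and 134, 137 and 138 CPM in the VCaP-CT libraries (log2 fold change −2.25 ± 0.05 (SE), adjusted p = 5.66e-19). FKBP5, a co-chaperone of steroid receptors and a standard readout of androgen signalling, stood at 403, 429 and 425 CPM in the VCaP-T libraries and 122, 122 and 125 CPM in the VCaP-CT libraries (log2 fold change −1.77 ± 0.05 (SE), adjusted p = 2.79e-17). All 3 genes were lower in each VCaP-CT library than in any VCaP-T library. The efflux transporter ABCC4 (from 315 to 64.1 CPM, log2 fold change −2.30), MSMB, which encodes the seminal plasma protein β-microseminoprotein (from 3.17 to 0.387 CPM, log2 fold change −3.04), KLK15 (from 12.6 to 4.296 CPM, log2 fold change −1.55) and the luminal keratin KRT8 (from 969 to 363 CPM, log2 fold change −1.42) were the other members past the 2-fold test in this direction.

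Most other androgen-induced genes did not pass the 2-fold test. NDRG1, a stress-responsive differentiation gene, fell from 2638 to 1325 CPM (log2 fold change −0.99 ± 0.04 (SE), adjusted p = 3.19e-14). SLC45A3, which encodes prostein, was at 710.0, 684 and 803 CPM in the VCaP-T libraries and 659, 689.5 and 564 CPM in the VCaP-CT libraries, where the groups overlapped (log2 fold change −0.20 ± 0.07 (SE), adjusted p = 0.0238, and adjusted p = 0.133 and 0.111 without replicate 3 of VCaP-CT or of VCaP-T). KLK4 stood at 240.3, 238 and 264 CPM in the VCaP-T libraries and 228, 237 and 211 CPM in the VCaP-CT libraries and did not pass (adjusted p = 0.0708). ACP3, the prostatic acid phosphatase, was at 2998, 3184 and 3064 CPM in the VCaP-T libraries and 3459, 3268 and 3392 CPM in the VCaP-CT libraries (log2 fold change 0.13 ± 0.05 (SE), adjusted p = 0.0193), a small difference whose adjusted p lay between 0.0528 and 0.164 in 9 of the alternative fits. Against the direction of the list, TRPM8 and TRPV6, both calcium-permeable channels, rose from 140.2 to 203 CPM and from 9.96 to 16.4 CPM (log2 fold changes 0.54 and 0.72), CAMKK2, a calcium-dependent kinase, rose from 258 to 324 CPM, and the long noncoding RNA PCAT1 stood at 20.6, 22.2 and 19.8 CPM in the VCaP-T libraries and 549, 515 and 553 CPM in the VCaP-CT libraries (log2 fold change 4.69 ± 0.05 (SE), adjusted p = 1.04e-23). PCAT1 was the 1 member more than 2-fold higher.

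**Figure D3:**
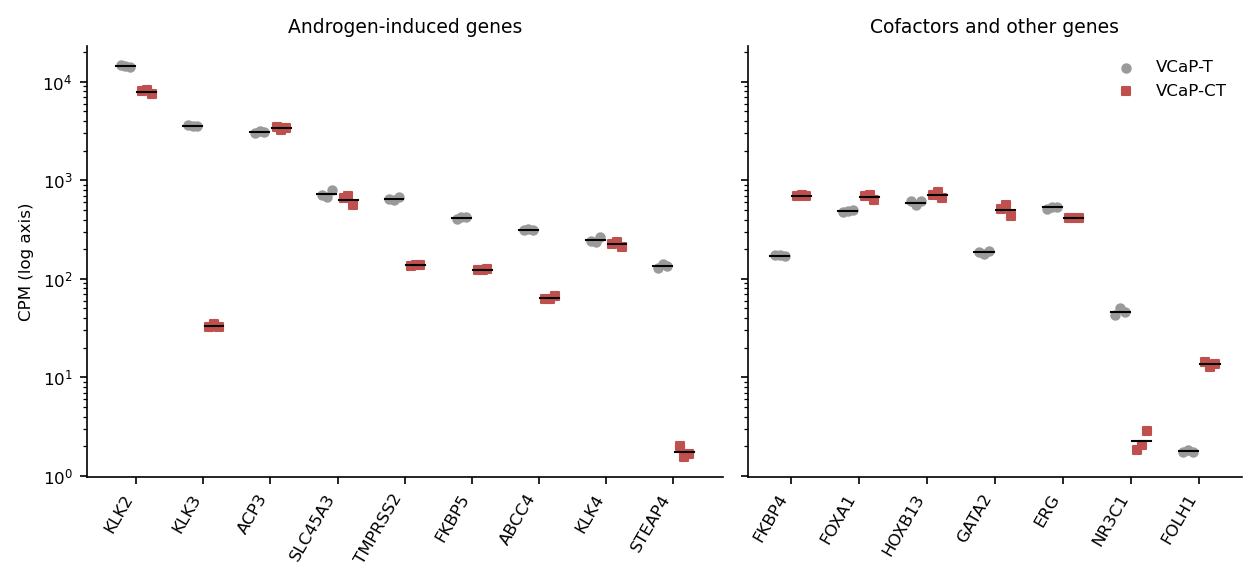
CPM (y axis, log scale) of 9 androgen-induced genes and 7 other genes in each VCaP-T library (grey circles) and VCaP-CT library (red squares), with black lines at the means of 3 libraries. KLK3 and STEAP4 drop by more than an order of magnitude, KLK2, TMPRSS2, FKBP5 and ABCC4 less, SLC45A3, ACP3 and KLK4 are nearly level, and FKBP4 and FOLH1 rise while NR3C1 falls.

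Chaperones and cofactors of the androgen response moved in both directions. FKBP4, a co-chaperone that promotes hormone binding by steroid receptors, stood at 174, 173 and 170.3 CPM in the VCaP-T libraries and 701, 701 and 695 CPM in the VCaP-CT libraries (log2 fold change 2.02 ± 0.04 (SE), adjusted p = 9.27e-20), opposite to FKBP5. GATA2, a pioneer factor of prostate cells, stood at 187, 180.4 and 193 CPM in the VCaP-T libraries and 512, 558 and 439 CPM in the VCaP-CT libraries (log2 fold change 1.43 ± 0.08 (SE), adjusted p = 5.85e-13). Both were higher in all VCaP-CT libraries. HSP90AA1, the chaperone that keeps steroid receptors ready for hormone, rose from 525 to 882 CPM, and the coactivator NCOA2 from 76.9 to 147 CPM. FOXA1 rose from 489 to 679 CPM (log2 fold change 0.48 ± 0.05 (SE), adjusted p = 9.49e-09), HOXB13 from 595 to 709 CPM (log2 fold change 0.25 ± 0.06 (SE), adjusted p = 0.000811) and GRHL2, an epithelial partner, from 129.6 to 181 CPM. Lower were SPOP, the substrate receptor of a ubiquitin ligase (from 108 to 63.02 CPM, log2 fold change −0.78), PIAS1 (from 138 to 85.4 CPM, log2 fold change −0.69) and the corepressor NCOR1 (from 172 to 149.9 CPM, log2 fold change −0.20). Of the exon sequence of PIAS1, 32.3% is shared with genes of the other strand, and counting ignored strand.

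ERG, expressed here from the fusion with TMPRSS2, stood at 515, 537 and 542 CPM in the VCaP-T libraries and 416, 415 and 414 CPM in the VCaP-CT libraries (log2 fold change −0.36 ± 0.05 (SE), adjusted p = 6.11e-07). Its fall was smaller than that of TMPRSS2 in log2 terms. Of 19 ETS factors, 9 rose and 7 fell, beside 33.1% and 32.2% of all tested genes. Only ELF3, an epithelial member, passed the 2-fold test (from 137 to 48.99 CPM, log2 fold change −1.49). EHF, another epithelial ETS gene, rose from 128 to 249.9 CPM (log2 fold change 0.97).

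Androgen-repressed genes split almost evenly: of 22 tested, 10 rose and 9 fell, and by more than 2-fold 7 rose and 6 fell, with a median of 0.11. Over all tested genes 33.1% rose and 32.2% fell, and 4.21% and 8.22% by more than 2-fold. The risers included FOLH1, the gene of prostate-specific membrane antigen, which stood at 1.76, 1.82 and 1.74 CPM in the VCaP-T libraries and 14.4, 12.8 and 13.6 CPM in the VCaP-CT libraries (log2 fold change 2.94 ± 0.12 (SE), adjusted p = 7.8e-15). It was higher in all 3 VCaP-CT libraries. The chemokine scavenger ACKR3 (from 0.199 to 4.69 CPM, log2 fold change 4.54), HSD17B6 (from 10.6 to 36.01 CPM, log2 fold change 1.77), ST7 (from 122 to 439 CPM, log2 fold change 1.85) and PPFIA2, a synaptic scaffold (from 1.21 to 31.8 CPM, log2 fold change 4.71), were also more than 2-fold higher, and BCHE, butyrylcholinesterase, had 2 counts over the VCaP-T libraries and 444 over the VCaP-CT libraries, a ratio of 247 with an exact Clopper-Pearson 95% interval of 67.9 to 2043. PPFIA2 shares 20.5% of its exon sequence with genes of the other strand. The fallers past 2-fold were DDC, which makes dopamine and serotonin (from 50.6 to 10.6 CPM, log2 fold change −2.26), the opioid receptor gene OPRK1 (from 49.5 to 17.7 CPM, log2 fold change −1.48), SLITRK6 (from 8.67 to 2.37 CPM, log2 fold change −1.87), the imprinted gene PEG3 (from 3.84 to 1.37 CPM, log2 fold change −1.48) and the low glucuronidation genes UGT2B10 and UGT2B11 (from 0.564 to 0.0878 CPM and from 1.88 to 0.41 CPM). UGT2B genes are near-identical copies, and their split counts are uncertain.

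Glucocorticoid receptor, encoded by NR3C1, binds response elements much like those of androgen-regulated genes. It stood at 43.00, 49.98 and 45.7 CPM in the VCaP-T libraries and 1.84, 2.05 and 2.88 CPM in the VCaP-CT libraries, lower in every VCaP-CT library, a fall of 20.4-fold (log2 fold change −4.35 ± 0.12 (SE), adjusted p = 1.12e-17). The progesterone receptor PGR rose from 0.197 to 5.498 CPM (log2 fold change 4.77 ± 0.20 (SE), adjusted p = 1.02e-14). Of 26 tested genes of a list of nuclear receptors, 11 rose and 9 fell, and by more than 2-fold 1 rose and 4 fell. Over all tested genes 33.1% rose and 32.2% fell, and 4.21% and 8.22% by more than 2-fold. PPARG, a lipid-sensing receptor, fell from 10.4 to 0.181 CPM (log2 fold change −5.81) and ESRRG from 8.21 to 1.601 CPM (−2.35). NR2F2, linked to stromal and lineage programs, rose from 56.8 to 108 CPM (0.92), and RARG from 1.84 to 4.05 CPM (1.14).

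Genes of androgen synthesis and clearance were mostly low and mostly lower in VCaP-CT. Of 25 tested, 15 fell and 4 rose, 8 fell and 1 rose by more than 2-fold, and the median was −0.57. UGDH, which supplies the glucuronic acid used to inactivate androgens, stood at 118, 127 and 120.5 CPM in the VCaP-T libraries and 50.8, 46.3 and 51.9 CPM in the VCaP-CT libraries (log2 fold change −1.29 ± 0.06 (SE), adjusted p = 1.6e-14). Its groups did not overlap. CYP1B1, a steroid hydroxylase (from 23.2 to 2.98 CPM, log2 fold change −2.96), UGT2B7 (from 5.997 to 1.203 CPM, log2 fold change −2.31) and SULT2B1, a sterol sulfotransferase (from 1.77 to 0.278 CPM, log2 fold change −2.65), also fell by more than 2-fold, as did AKR1C1 and AKR1C2 (from 1.06 to 0.0959 CPM and from 2.29 to 0.534 CPM), which share sequence with AKR1C3. AKR1C3, which makes testosterone from weak precursors, was at 3.43 and 3.26 CPM and did not pass (adjusted p = 0.647). SRD5A1, the 5α-reductase that forms dihydrotestosterone, fell from 37.04 to 24.9 CPM. HSD17B6, UGT2B10 and UGT2B11, among others, are counted in this list and among the androgen-repressed genes, so the 2 lists are not separate results. The 1 gene more than 2-fold higher was HSD17B6, which can convert androstanediol back to dihydrotestosterone. It stood at 11.5, 10.9 and 9.46 CPM in the VCaP-T libraries and 33.97, 37.7 and 36.3 CPM in the VCaP-CT libraries (log2 fold change 1.77 ± 0.08 (SE), adjusted p = 2.72e-14), and its groups did not overlap. CYP17A1, the enzyme that opens the androgen branch of steroid synthesis, had at most 19 counts in any of the 6 libraries and was not tested.

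Genes of secreted proteins of luminal cells held a smaller share of the counts in VCaP-CT. Of 20 tested genes, 15 fell and 2 rose, 11 fell and 1 rose by more than 2-fold, and the sum over the list went from 32007 to 33973 CPM in VCaP-T to 11748 to 12297 CPM in VCaP-CT. Most of that loss in the sum came from CST2, KLK2 and KLK3. KLK2, KLK3, KLK4, ACP3, MSMB and AZGP1 are counted in this list and among the androgen-induced genes, so the 2 lists are not separate results. CST2, which encodes the secreted protease inhibitor cystatin SA, stood at 11056, 10171 and 9867 CPM in the VCaP-T libraries and 14.4, 16.4 and 15.4 CPM in the VCaP-CT libraries, at chr20:23823769-23826731. It was among the most abundant transcripts of VCaP-T and thinly expressed in each VCaP-CT library (log2 fold change −9.39 ± 0.25 (SE), adjusted p = 6.11e-18). Its paralogs CST1 (from 194 to 7.56 CPM, log2 fold change −4.68) and CST4 (from 70.5 to 1.81 CPM, log2 fold change −5.28) fell too, but the 3 genes are similar enough that their shares are uncertain, whereas CST3, the broadly expressed cystatin C, was at 142 and 148 CPM (adjusted p = 0.4). HPGD, which inactivates prostaglandins and has been described as androgen-responsive in prostate cells, stood at 2067, 2089 and 1923 CPM in the VCaP-T libraries and 22.2, 18.3 and 23.6 CPM in the VCaP-CT libraries (log2 fold change −6.57 ± 0.09 (SE), adjusted p = 2.16e-22). AGR3 and AGR2, disulfide isomerases of mucus-secreting epithelia, fell from 43.96 to 1.26 CPM and from 592 to 267 CPM (log2 fold changes −5.13 and −1.15). The trefoil factor TFF1 (from 40.3 to 5.41 CPM, log2 fold change −2.90), the trypsin inhibitor SPINK1 (from 45.6 to 5.52 CPM, log2 fold change −3.04), the secretoglobin SCGB2A1 (from 27.5 to 6.09 CPM, log2 fold change −2.17) and the mucin MUC13 (from 1.73 to 0.0473 CPM, log2 fold change −5.08) fell by more than 2-fold as well. NPY, a peptide secreted by prostate cancer cells, was the 1 member over 2-fold higher, at 5.59, 6.37 and 7.13 CPM in the VCaP-T libraries and 15.04, 14.1 and 15.3 CPM in the VCaP-CT libraries (log2 fold change 1.21 ± 0.09 (SE), adjusted p = 2.7e-10).

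Genes under ATF4, the transcription factor that the integrated stress response raises when eIF2α is phosphorylated, had the lowest median among the lists of known function. All 35 were tested, 33 fell and 2 rose, and 29 fell by more than 2-fold against 8.22% of all genes. Their summed level was 11906 to 12545 CPM in the VCaP-T libraries and 3062 to 3330 CPM in the VCaP-CT libraries, without overlap. The mRNA of ATF4 itself stood at 1142, 1089.7 and 1031 CPM in the VCaP-T libraries and 646, 669.9 and 616 CPM in the VCaP-CT libraries (log2 fold change −0.76 ± 0.05 (SE), adjusted p = 1.12e-11), a smaller fall than that of most listed targets, and ATF4 is known to be controlled largely at translation, which these data do not measure. DDIT3 (CHOP), its partner in prolonged stress, stood at 187, 172 and 161 CPM in the VCaP-T libraries and 20.5, 20.99 and 20.6 CPM in the VCaP-CT libraries (log2 fold change −3.06 ± 0.06 (SE), adjusted p = 1.31e-19). ATF5 fell from 625 to 67.4 CPM, ATF3 from 25.8 to 1.41 CPM and the pseudokinase TRIB3 from 584 to 92.04 CPM, and their groups did not overlap. GDF15, a secreted stress cytokine, stood at 1298, 1111 and 1269.6 CPM in the VCaP-T libraries and 23.9, 30.8 and 20.2 CPM in the VCaP-CT libraries (log2 fold change −5.62 ± 0.14 (SE), adjusted p = 3.22e-18). FGF21, another secreted stress hormone, had 475 counts over the VCaP-T libraries and 2 over the VCaP-CT libraries, a ratio of 214 with an exact Clopper-Pearson 95% interval of 58.9 to 1771.

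By role, the lower ATF4 genes spanned amino acid import, synthesis and charging. Among transporters, SLC7A5, the large neutral amino acid transporter, stood at 54.1, 50.1 and 61.5 CPM in the VCaP-T libraries and 2.14, 3.42 and 2.26 CPM in the VCaP-CT libraries (log2 fold change −4.40 ± 0.15 (SE), adjusted p = 2.59e-16), its partner SLC3A2 fell from 269.7 to 90.1 CPM, the cystine transporter SLC7A11 from 77.5 to 11.2 CPM, the glutamine transporter SLC1A5 from 1070.2 to 321 CPM and SLC7A1 from 250.4 to 117 CPM. In serine and one-carbon metabolism, PSAT1 fell from 489.8 to 85.3 CPM (log2 fold change −2.52), PSPH from 63.6 to 25.2 CPM, PHGDH from 449 to 224 CPM, SHMT2 from 1129.9 to 342 CPM and MTHFD2 from 337 to 73.9 CPM (−2.19). Asparagine synthetase, ASNS, was low in these counts and fell from 6.44 to 1.98 CPM. Of the tRNA synthetases, AARS1 stood at 758, 748 and 743 CPM in the VCaP-T libraries and 193, 205 and 185 CPM in the VCaP-CT libraries (log2 fold change −1.95 ± 0.04 (SE), adjusted p = 5.09e-19), and GARS1 and WARS1 fell from 426 to 79.3 CPM and from 360.0 to 88.6 CPM. Feedback and checkpoint genes fell with them: CHAC1, which degrades glutathione, at 52.3, 47.7 and 55.2 CPM in the VCaP-T libraries and 2.78, 4.500 and 2.52 CPM in the VCaP-CT libraries (log2 fold change −3.98 ± 0.13 (SE), adjusted p = 1.04e-16), the mTORC1 inhibitors SESN2 (from 68.01 to 7.65 CPM, log2 fold change −3.15) and DDIT4 (from 146 to 9.71 CPM, log2 fold change −3.91), and PPP1R15A, which restores eIF2α (from 57.98 to 22.3 CPM, log2 fold change −1.38). DDIT4 shares 41.2% of its exon sequence with other genes. The 2 genes that rose were CBS (from 18.9 to 25.3 CPM, log2 fold change 0.43) and CTH (from 4.52 to 6.14 CPM, log2 fold change 0.45), which carry homocysteine to cysteine.

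**Figure D4:**
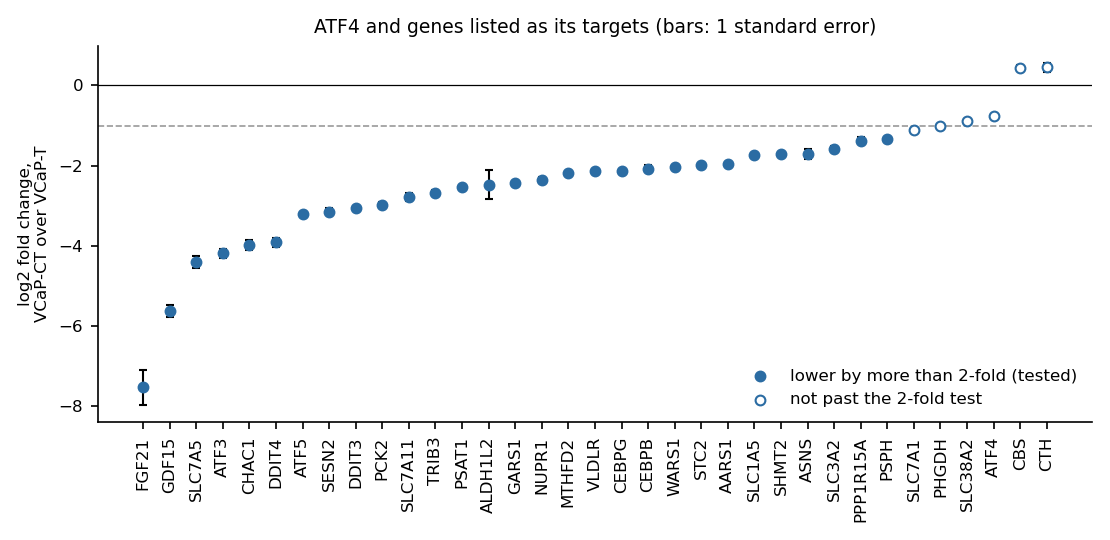
Log2 fold change (y axis, VCaP-CT over VCaP-T) of ATF4 and 34 genes listed as its targets, ordered from the lowest, with bars of 1 standard error. Filled points are the 29 genes lower by more than 2-fold (dashed line at −1), and open points the 6 others, of which CBS and CTH lie above 0.

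Windows before 3 of these genes are shown because each holds a C/EBP-ATF composite element, the site that ATF4 binds with a C/EBP partner, in a gene that fell by more than 2-fold. They are 250 bases long, run 5′ to 3′ on the strand of the gene and come from RefSeq (GRCh38.p14), and capitals mark TTGCATCA or its reverse complement TGATGCAA.
CHAC1 (chr15:40953221-40953470, plus strand): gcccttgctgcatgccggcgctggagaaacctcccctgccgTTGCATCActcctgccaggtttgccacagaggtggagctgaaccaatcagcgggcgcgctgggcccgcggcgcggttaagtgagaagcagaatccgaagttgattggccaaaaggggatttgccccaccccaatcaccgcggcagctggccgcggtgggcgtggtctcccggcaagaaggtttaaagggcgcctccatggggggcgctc
AARS1 (chr16:70289507-70289756, minus strand): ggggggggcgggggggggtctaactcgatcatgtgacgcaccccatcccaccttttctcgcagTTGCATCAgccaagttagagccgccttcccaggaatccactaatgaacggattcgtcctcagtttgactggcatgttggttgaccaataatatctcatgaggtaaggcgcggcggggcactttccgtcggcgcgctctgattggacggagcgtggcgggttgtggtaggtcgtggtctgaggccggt
FGF21 (chr19:48755274-48755523, plus strand): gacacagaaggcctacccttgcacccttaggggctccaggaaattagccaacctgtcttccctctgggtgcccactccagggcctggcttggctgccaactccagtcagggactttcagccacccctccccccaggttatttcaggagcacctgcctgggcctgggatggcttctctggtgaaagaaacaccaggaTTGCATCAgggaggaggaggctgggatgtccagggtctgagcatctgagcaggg
The element lay 209 to 202 bases before the start of CHAC1, 187 to 180 before that of AARS1 and 54 to 47 before that of FGF21. Over both strands it was present before 5 of 30 ATF4 targets with a window (16.7%: AARS1, CEBPG, CHAC1, FGF21 and SLC1A5), 71 of 12263 tested genes (0.579%) and 264 of all 27305 genes (0.967%). Of 1069 genes over 2-fold lower with a window, 22 (2.06%) held it, and of 476 genes over 2-fold higher, 2 (0.42%). These shares are descriptions, and a match is not evidence that ATF4 was bound there.

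Neighbouring stress programs moved less. Of 40 genes for folding in the endoplasmic reticulum and the unfolded protein response, 25 fell and 11 rose, but 4 fell and none rose by more than 2-fold, and the median was −0.32. The sensor ERN1 (IRE1) stood at 99.1, 97.9 and 96.5 CPM in the VCaP-T libraries and 25.5, 30.4 and 27.9 CPM in the VCaP-CT libraries (log2 fold change −1.81 ± 0.07 (SE), adjusted p = 1.04e-15), and EIF2AK3 (PERK), the kinase upstream of ATF4 in this branch, fell from 34.6 to 17.2 CPM (log2 fold change −1.01). HERPUD1 (from 169 to 69.1 CPM, log2 fold change −1.29), DNAJC10 (from 235 to 96.6 CPM, log2 fold change −1.28) and the retrieval receptor KDELR3 (from 7.28 to 2.099 CPM, log2 fold change −1.79) fell by more than 2-fold. Abundant chaperones went the other way or little: HSPA5 (BiP) rose from 534 to 653 CPM, CALR from 1142 to 1936 CPM and XBP1 from 588 to 728 CPM, while HSP90B1 fell from 1433 to 1265 CPM. Of 28 NRF2 targets, which answer oxidative stress, 13 fell and 7 rose, 9 fell and 1 rose by more than 2-fold. Over all tested genes 32.2% fell and 33.1% rose, and 8.22% and 4.21% by more than 2-fold. NQO1 (from 17.7 to 2.51 CPM, log2 fold change −2.82), GPX2 (from 17.1 to 1.901 CPM, log2 fold change −3.17), the efflux pump ABCC3 (from 19.7 to 1.12 CPM, log2 fold change −4.14), FTH1 (from 186 to 70.1 CPM, log2 fold change −1.41) and NFE2L2, the gene of NRF2 itself (from 99.1 to 40.3 CPM, log2 fold change −1.30), fell, whereas TXN (from 179.8 to 336 CPM, log2 fold change 0.90) and PRDX1 (from 73.7 to 141 CPM, log2 fold change 0.93) rose. SLC7A11, AKR1C1 and AKR1C2 are counted in this list and in another.

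Genes for some main steps of polyamine metabolism, which is highly active in normal prostate, were lower. ODC1, which forms putrescine, stood at 427, 431 and 381 CPM in the VCaP-T libraries and 193, 169 and 184 CPM in the VCaP-CT libraries (log2 fold change −1.18 ± 0.06 (SE), adjusted p = 1.87e-13). SAT1, which acetylates polyamines for export, was at 753, 727 and 619 CPM in the VCaP-T libraries and 209.9, 202 and 207 CPM in the VCaP-CT libraries (log2 fold change −1.76 ± 0.06 (SE), adjusted p = 2.79e-16). In both genes every VCaP-CT library was below every VCaP-T library. SMOX fell from 75.5 to 26.5 CPM, AMD1 from 1364 to 1144 CPM, and SMS, spermine synthase, rose from 97.2 to 143 CPM. Over the 15 genes 6 fell and 4 rose, and 3 fell and none rose by more than 2-fold. The list median was −0.05. Of all tested genes 32.2% fell and 33.1% rose, and 8.22% fell and 4.21% rose by more than 2-fold.

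Epithelial identity genes were mostly lower, and most still had counts. Of 26 tested, 20 fell and 4 rose, 9 fell and 2 rose by more than 2-fold, and the median was −0.95. The luminal keratins KRT8 and KRT18 stood at 1045, 919.7 and 941 CPM in the VCaP-T libraries and 378, 382 and 328 CPM in the VCaP-CT libraries, and at 739, 696 and 651 CPM in the VCaP-T libraries and 322, 329.5 and 326 CPM in the VCaP-CT libraries. Both were lower in each VCaP-CT library (log2 fold change −1.42 ± 0.07 (SE), adjusted p = 3.86e-13, and log2 fold change −1.09 ± 0.05 (SE), adjusted p = 1.23e-14), and the 2 genes overlap on opposite strands. KRT19 fell from 139 to 13.4 CPM (−3.38 on the log2 scale), KRT14 from 10.1 to 2.52 CPM, and KRT15 had no count in any VCaP-CT library and was at least 137-fold lower against the floor of 3 counts per library. E-cadherin (CDH1) fell from 609 to 328 CPM, EPCAM from 371 to 224 CPM, the splicing regulator ESRP1 from 331 to 124 CPM and CD24 from 1181 to 506 CPM. The risers past 2-fold were CD44, a hyaluronan receptor, and the retinaldehyde dehydrogenase ALDH1A1. CD44 rose from 10.4 to 30.97 CPM (log2 fold change 1.58) and ALDH1A1 from 48.3 to 107 CPM (log2 fold change 1.15). ALDH1A3, another member, fell from 43.2 to 13.3 CPM (log2 fold change −1.70).

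Mesenchymal genes were mostly lower too. Of 26 genes, 15 passed the count filter, most of them at a few CPM. Of these, 11 fell and 1 rose, 7 and 1 by more than 2-fold. The riser was CD44, which is also counted among the epithelial identity genes. SNAI2, a repressor of epithelial genes, stood at 2.15, 2.75 and 2.45 CPM in the VCaP-T libraries and 0.0302, 0.114 and 0.0559 CPM in the VCaP-CT libraries (log2 fold change −5.12 ± 0.38 (SE), adjusted p = 1.3e-10), COL1A1 fell from 6.56 to 1.01 CPM, LOX from 21.7 to 5.47 CPM, TGFB2 from 8.22 to 3.03 CPM and TNC from 1.901 to 0.258 CPM. ZEB1, ZEB2, TWIST1 and CDH2 had at most 3 counts in a library. VIM had at most 2 counts although most cultured cells express it, so a count of 0 in this annotation need not mean absence.

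Neuroendocrine and neuronal genes fell more often than they rose. Of 31 tested, 23 fell and 8 rose, 17 fell and 3 rose by more than 2-fold, and the median was −1.72. DDC, DLL3 and ENO2 are counted in this list and in another. Several members that fell far are parts of dense-core or synaptic vesicles. CHGB, chromogranin B, stood at 156, 166 and 155 CPM in the VCaP-T libraries and 1.03, 0.94 and 0.699 CPM in the VCaP-CT libraries (log2 fold change −7.49 ± 0.10 (SE), adjusted p = 2.57e-22). SCG3, secretogranin III, was at 74.5, 75.97 and 71.2 CPM in the VCaP-T libraries and 3.502, 3.05 and 3.27 CPM in the VCaP-CT libraries (log2 fold change −4.50 ± 0.10 (SE), adjusted p = 2.08e-19). SYP, synaptophysin, was at 32.9, 32.2 and 33.9 CPM in the VCaP-T libraries and 6.19, 6.75 and 5.39 CPM in the VCaP-CT libraries (log2 fold change −2.43 ± 0.10 (SE), adjusted p = 5.75e-15). In all 3 genes the groups did not overlap. SYT4, a synaptotagmin of dense-core vesicles, had 2817 counts over the VCaP-T libraries and 3 over the VCaP-CT libraries, a ratio of 845 with an exact Clopper-Pearson 95% interval of 289 to 4101. SNAP25, a membrane fusion protein, had 1878 counts over the VCaP-T libraries and 2 over the VCaP-CT libraries, a ratio of 845 with an exact Clopper-Pearson 95% interval of 234 to 6985. BEX1, another member, had 1016 counts over the VCaP-T libraries and 3 over the VCaP-CT libraries, a ratio of 305 (exact 95% interval 104 to 1481). Outside the list, CPLX2, complexin 2, which clamps vesicle fusion, stood at 117, 121 and 129 CPM in the VCaP-T libraries and 0, 0.114 and 0.224 CPM in the VCaP-CT libraries (log2 fold change −10.01 ± 0.22 (SE), adjusted p = 2.97e-19). RIMS2, an active-zone scaffold also outside the list, fell from 33.4 to 0.0973 CPM. Transcription and splicing regulators of the neuroendocrine state were mixed: NKX2-1 fell from 4.42 to 0.763 CPM, the splicing factor SRRM4 from 12.7 to 3.84 CPM and INSM1 from 38.8 to 20.2 CPM, whereas ONECUT2 rose from 14.5 to 26.6 CPM, DLL3 from 6.78 to 12.7 CPM and REST, the repressor of neuronal genes, from 14.5 to 31.7 CPM (log2 fold change 1.13). ENO2, neuron-specific enolase, went against the list, at 21.8, 21.9 and 22.1 CPM in the VCaP-T libraries and 66.1, 70.9 and 65.04 CPM in the VCaP-CT libraries (log2 fold change 1.62 ± 0.06 (SE), adjusted p = 6.1e-16). CHGA had at most 1 count in a library and NEUROD1 had none.

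Among 16 surface antigens used or tried as drug targets, 10 fell and 5 rose, and by more than 2-fold 4 fell and 2 rose. Over all tested genes 32.2% fell and 33.1% rose, and 8.22% and 4.21% by more than 2-fold. CEACAM5, the carcinoembryonic antigen, had 1345 counts over the VCaP-T libraries and 1 over the VCaP-CT libraries, a ratio of 1211 with an exact Clopper-Pearson 95% interval of 217 to 47858. ERBB3 stood at 236, 241 and 235 CPM in the VCaP-T libraries and 54.7, 57.6 and 52.2 CPM in the VCaP-CT libraries (log2 fold change −2.11 ± 0.05 (SE), adjusted p = 8.32e-19), and PSCA fell from 15.8 to 3.81 CPM. STEAP1 was at 167 and 164 CPM and did not pass (adjusted p = 0.783), CD276 (B7-H3) rose from 357 to 414 CPM and NECTIN4 from 4.78 to 11.3 CPM, beside the rise of FOLH1.

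Genes of DNA replication were slightly and almost uniformly higher. Of 42 tested S phase genes, 33 rose and 3 fell, and none in either direction by more than 2-fold. The median was 0.40, and the summed level went from 2143 to 2263 CPM to 2885 to 3053 CPM. MCM4, a subunit of the replicative helicase, stood at 127, 132 and 129 CPM in the VCaP-T libraries and 257, 252 and 248 CPM in the VCaP-CT libraries (log2 fold change 0.96 ± 0.05 (SE), adjusted p = 8.24e-14). CDC45, which activates that helicase, stood at 44.2, 45.2 and 41.03 CPM in the VCaP-T libraries and 90.2, 87.3 and 82.2 CPM in the VCaP-CT libraries (log2 fold change 0.99 ± 0.05 (SE), adjusted p = 2.38e-13). Both were higher in all VCaP-CT libraries, as was PCNA, the sliding clamp (from 163 to 287 CPM, log2 fold change 0.81). RRM2, the small subunit of ribonucleotide reductase, went against the list (from 39.8 to 21.97 CPM, log2 fold change −0.86) although RRM1 rose from 102 to 187 CPM. G2/M genes moved less, with 27 of 54 higher, 7 lower and a median of 0.15. MKI67, the proliferation antigen, was at 197 and 185 CPM and TOP2A at 276 and 282 CPM, and neither passed (adjusted p = 0.303 and 0.651). CDC25C, the phosphatase that releases CDK1, was the 1 member over 2-fold higher (from 28.6 to 67.9 CPM, log2 fold change 1.25). Growth was not measured in these libraries.

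Control of G1 moved in both directions, with 12 of 29 genes higher and 11 lower and a median of −0.05. Over all tested genes 33.1% were higher and 32.2% lower. MYC stood at 299.6, 287 and 301 CPM in the VCaP-T libraries and 545, 603 and 509.8 CPM in the VCaP-CT libraries (log2 fold change 0.90 ± 0.06 (SE), adjusted p = 2.84e-11). Its groups did not overlap. CCND1, cyclin D1, fell from 936 to 555 CPM (log2 fold change −0.76), CDK6 from 2.76 to 0.218 CPM (−3.62) and the inhibitors CDKN1A (p21) and CDKN2B (p15) from 98.1 to 34.7 CPM and from 3.37 to 0.753 CPM. CDKN1B (p27), the inhibitor that accompanies cell cycle exit, rose from 27.3 to 68.2 CPM (log2 fold change 1.32 ± 0.05 (SE), adjusted p = 5.77e-15), and E2F1 and E2F3 rose from 85.3 to 122 CPM and from 98.5 to 159.5 CPM.

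Cytosolic ribosomal protein genes were higher nearly throughout. Of 79 tested, 75 rose and 2 fell, with a median of 0.72, and 5 rose by more than 2-fold, a count that lay between 1 and 8 in the alternative fits and was 3 without several single libraries. Together they took 54001 to 63529 CPM in VCaP-T and 91435 to 98398 CPM in VCaP-CT. RPL3 stood at 2575, 2449 and 2356 CPM in the VCaP-T libraries and 4866, 4898 and 4910.4 CPM in the VCaP-CT libraries (log2 fold change 0.99 ± 0.04 (SE), adjusted p = 4.13e-14). RPS4X was at 2024, 1997 and 1765 CPM in the VCaP-T libraries and 3886, 3557 and 3883 CPM in the VCaP-CT libraries (log2 fold change 0.97 ± 0.05 (SE), adjusted p = 9.25e-13). RPL28 rose from 666 to 1528 CPM, RPL8 from 878 to 1903 CPM and RPL34 from 236 to 535 CPM. The fallers were RPS27L (from 65.4 to 43.96 CPM, log2 fold change −0.57), a p53-responsive paralog, and RPS26 (from 13.6 to 11.5 CPM, log2 fold change −0.25). Ribosomal protein genes have many processed pseudogenes, reads from which may be counted in either place. RACK1, a component of the small subunit, gained more mean CPM than any other gene called without overlap, at 3388, 3222 and 3124 CPM in the VCaP-T libraries and 6203, 6316 and 6358 CPM in the VCaP-CT libraries (log2 fold change 0.96 ± 0.04 (SE), adjusted p = 5.4e-14), and the elongation factor EEF1A1 rose from 3352 to 5095 CPM, with its pseudogene EEF1A1P5 listed at nearly the same level (from 3233 to 4975 CPM).

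In central metabolism the directions divided within pathways. Of 42 genes of glycolysis and hypoxia, 24 fell and 15 rose, 10 fell and 3 rose by more than 2-fold. Over all tested genes 32.2% fell and 33.1% rose, and 8.22% and 4.21% by more than 2-fold. ENO2, DDIT4, NDRG1, LOX and VEGFA are counted in this list and in another. VEGFA stood at 406, 396 and 400.0 CPM in the VCaP-T libraries and 85.2, 91.96 and 79.3 CPM in the VCaP-CT libraries (log2 fold change −2.23 ± 0.05 (SE), adjusted p = 1.47e-18). The lactate transporter SLC16A1 was at 188, 195 and 174 CPM in the VCaP-T libraries and 49.5, 47.96 and 49.3 CPM in the VCaP-CT libraries (log2 fold change −1.93 ± 0.06 (SE), adjusted p = 2.89e-17). Both were lower in each VCaP-CT library. HIF1A fell from 369 to 178 CPM, PFKP from 175 to 67.9 CPM, HK2 from 35.3 to 15.6 CPM and the glucose transporter SLC2A3 from 6.49 to 0.547 CPM. Among the list's enzymes that rose, GAPDH went from 1458 to 2292 CPM, TPI1 from 236 to 416 CPM, LDHA from 239 to 411 CPM and LDHB from 309 to 757 CPM (log2 fold change 1.29). CA12, a carbonic anhydrase of the cell surface, rose from 62.4 to 228 CPM (1.87).

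Lipid genes divided by branch. Of 40 fatty acid genes, 21 fell and 7 rose, 5 fell and 1 rose by more than 2-fold. Beside this list and those that follow, 32.2% of all tested genes fell and 33.1% rose, and 8.22% and 4.21% by more than 2-fold. ELOVL2, which lengthens polyunsaturated fatty acids, stood at 244, 261 and 243 CPM in the VCaP-T libraries and 76.5, 67.9 and 77.8 CPM in the VCaP-CT libraries (log2 fold change −1.75 ± 0.06 (SE), adjusted p = 2.26e-16). Its groups did not overlap. The desaturase SCD fell from 1895 to 907 CPM, ACSL3 from 578 to 276 CPM and the lipid droplet coat PLIN2 from 21.2 to 6.55 CPM. Fatty acid synthase, FASN, was at 1505, 1328 and 1883 CPM in the VCaP-T libraries and 1098, 1335 and 889.8 CPM in the VCaP-CT libraries, where the groups overlapped (log2 fold change −0.51 ± 0.15 (SE), adjusted p = 0.00547). AMACR, a marker of prostate cancer that racemizes branched fatty acids, fell from 106 to 79.6 CPM (log2 fold change −0.41 ± 0.06 (SE), adjusted p = 2.56e-06), but it shares 64.8% of its exon sequence with other genes. Cholesterol synthesis genes rose more often than they fell, 15 against 9 of 31, with 1 over 2-fold higher (TM7SF2, a sterol reductase, from 351 to 799 CPM, log2 fold change 1.19). MSMO1 rose from 64.4 to 137 CPM, ACAT2 from 35.5 to 73.95 CPM and SQLE, squalene epoxidase, from 105 to 188 CPM, while the regulators SREBF1 and INSIG1 fell from 235 to 118 CPM and from 198 to 107 CPM. Nuclear genes of oxidative phosphorylation rose in 37 of 78 and fell in 15, none by more than 2-fold, and of 13 protein genes of the mitochondrial genome 8 fell and 4 rose, led by MT-ND6 (from 542 to 413 CPM, log2 fold change −0.39) and MT-CYB (from 3242 to 4664 CPM, log2 fold change 0.52).

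Growth factor receptors, their ligands and binding proteins changed in both directions. Of 29 tested genes of this list, 14 rose and 12 fell, and 5 rose and 9 fell by more than 2-fold, with a median of 0.04. Of all tested genes 33.1% rose and 32.2% fell, and 4.21% rose and 8.22% fell by more than 2-fold. FGFR2 stood at 31.8, 32.5 and 29.6 CPM in the VCaP-T libraries and 5.43, 5.21 and 4.67 CPM in the VCaP-CT libraries (log2 fold change −2.62 ± 0.08 (SE), adjusted p = 8.61e-17). EGFR was at 73.5, 78.3 and 80.01 CPM in the VCaP-T libraries and 32.5, 33.98 and 30.9 CPM in the VCaP-CT libraries (log2 fold change −1.25 ± 0.06 (SE), adjusted p = 1.77e-13). Each was lower in all VCaP-CT libraries. The ephrin receptor EPHA7 fell from 14.1 to 1.82 CPM, the EGFR ligand TGFA from 36.7 to 9.53 CPM and IGF1R from 409.7 to 267 CPM. On the other side, FGFR3 rose from 20.1 to 42.1 CPM (log2 fold change 1.07), PDGFRB from 0.808 to 3.35 CPM, ROS1 from 0.15 to 1.55 CPM and IGFBP5 from 0.279 to 2.29 CPM. IGFBP2, which binds insulin-like growth factors outside the cell, stood at 51.3, 46.1 and 49.8 CPM in the VCaP-T libraries and 418, 457 and 387 CPM in the VCaP-CT libraries (log2 fold change 3.10 ± 0.09 (SE), adjusted p = 2.12e-17), without overlap.

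Over all protein-coding genes, those that fell most among genes with a mean log2 CPM of at least 1 over the 6 libraries included, beside CST2, CPLX2, CHGB, KLK3, HPGD and STEAP4, S100P, a calcium-binding protein of epithelial cancers, which had 8544 counts over the VCaP-T libraries and 6 over the VCaP-CT libraries, a ratio of 1282 with an exact Clopper-Pearson 95% interval of 589 to 3494. The phospholipid scramblase relative XKR7 (from 65.99 to 0.133 CPM, log2 fold change −8.90), the coiled-coil gene CCDC92B (from 22.99 to 0.126 CPM, log2 fold change −7.49), the basement membrane protein nidogen, NID1 (from 89.7 to 0.743 CPM, log2 fold change −6.91), and the trypsinogen PRSS3 (from 50.7 to 0.444 CPM, log2 fold change −6.83) were the others beside RIMS2. PRSS3 has near-identical copies. That minimum left out genes near 0 in VCaP-CT that fell as far or further, such as CEACAM6, a cell adhesion glycoprotein, which had 3723 counts over the VCaP-T libraries and 1 over the VCaP-CT libraries, a ratio of 3351 with an exact Clopper-Pearson 95% interval of 601 to 132409. Risers included several genes of the extracellular matrix and its processing. CPA6, a secreted carboxypeptidase, stood at 0.11, 0.136 and 0.165 CPM in the VCaP-T libraries and 32.4, 31.6 and 32.9 CPM in the VCaP-CT libraries (log2 fold change 7.83 ± 0.15 (SE), adjusted p = 3.24e-20). ADAMTS3, a procollagen peptidase, stood at 0.771, 0.572 and 0.518 CPM in the VCaP-T libraries and 46.7, 43.8 and 45.9 CPM in the VCaP-CT libraries (log2 fold change 6.20 ± 0.10 (SE), adjusted p = 4.24e-21). MGP, a matrix protein that restrains calcification, stood at 3.08, 3.21 and 2.75 CPM in the VCaP-T libraries and 119.9, 114 and 126 CPM in the VCaP-CT libraries (log2 fold change 5.32 ± 0.09 (SE), adjusted p = 2.58e-21). All 3 were near or under 3 CPM in VCaP-T and above it in every VCaP-CT library. ADAMTSL1 rose from 0.248 to 18.4 CPM, INHBA, a subunit of activin, from 0.635 to 15.3 CPM, and the adhesion receptor ADGRF1 from 0.534 to 17.3 CPM. The bicarbonate cotransporter SLC4A4 (from 0.756 to 18.7 CPM), the signalling scaffold CNKSR2 (from 0.417 to 16.2 CPM), the germ-cell gene ASZ1 (from 0.598 to 31.6 CPM), the olfactory receptor OR51E1, which is known from prostate cancer (from 0.648 to 13.5 CPM), and the carbonic anhydrase relative CA8 (from 1.29 to 18.8 CPM) completed the 12 with PPFIA2. The same minimum left out genes near 0 in VCaP-T that rose as far or further. ODAM had 1 count over the VCaP-T libraries and 608 over the VCaP-CT libraries, a ratio of 675 (exact 95% interval 121 to 26721). GPC6 had 3 and 814 counts, a ratio of 301 (103 to 1465).

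By amount of RNA, the largest losses of mean CPM were those of CST2, KLK2 and KLK3, then of MT-CO1, MT-RNR2, MT-CO2, HPGD and MT-ND4. The largest gains beside RACK1, RPL3, RPS4X and EEF1A1 with its pseudogene were RPL19 (from 2521 to 4374 CPM), the pseudogene RPL13AP5 (from 3745 to 5217 CPM) and MCCC2, a mitochondrial enzyme of leucine breakdown, which stood at 1188, 1233 and 1233 CPM in the VCaP-T libraries and 2808, 2754 and 2782 CPM in the VCaP-CT libraries (log2 fold change 1.19 ± 0.04 (SE), adjusted p = 7.21e-16). Its groups did not overlap.

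Position in the genome was examined last. Chromosome medians lay between −0.19 (chromosomes 2 and 7) and 0.53 (chromosome 21, where 60.5% of 238 tested genes were higher and 13.9% lower). The next highest were chromosomes X (0.33) and 22 (0.32). Of 285 windows of 10 Mb with at least 20 tested genes, 9 had a median over 0.5 and 13 under −0.5. The lowest were at 10 to 20 Mb of chromosome 8 (−0.94) and of chromosome 7 (−0.91), and on chromosome 8 all 4 windows from 0 to 40 Mb were among the 13 (−0.82, −0.94, −0.65 and −0.69). The highest were at 40 to 50 Mb of chromosome 21 (0.79) and 20 to 30 Mb of chromosome 11 (0.73). In the lowest, CSGALNACT1 fell from 192 to 45.1 CPM, MTMR9 from 12.5 to 4.17 CPM, LONRF1 from 17.96 to 6.15 CPM and ASAH1 from 150.1 to 54.9 CPM, and in that of chromosome 7 AGR3, SCIN (from 49.3 to 7.23 CPM) and HDAC9 (from 14.1 to 4.07 CPM) fell. In the highest, DSCAM (from 0.765 to 6.46 CPM), LRRC3 (from 2.11 to 9.89 CPM), COL18A1 (from 6.67 to 26.4 CPM) and ADARB1 (from 27.9 to 93.2 CPM) rose, and on chromosome 11 LUZP2 (from 14.02 to 70.9 CPM), HSP90AA2P (from 25.1 to 45.6 CPM), SVIP (from 37.1 to 65.3 CPM) and LGR4 (from 48.1 to 84.1 CPM). Copy number was not measured in these files, and its part in any result here was not tested.

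**Figure D5:**
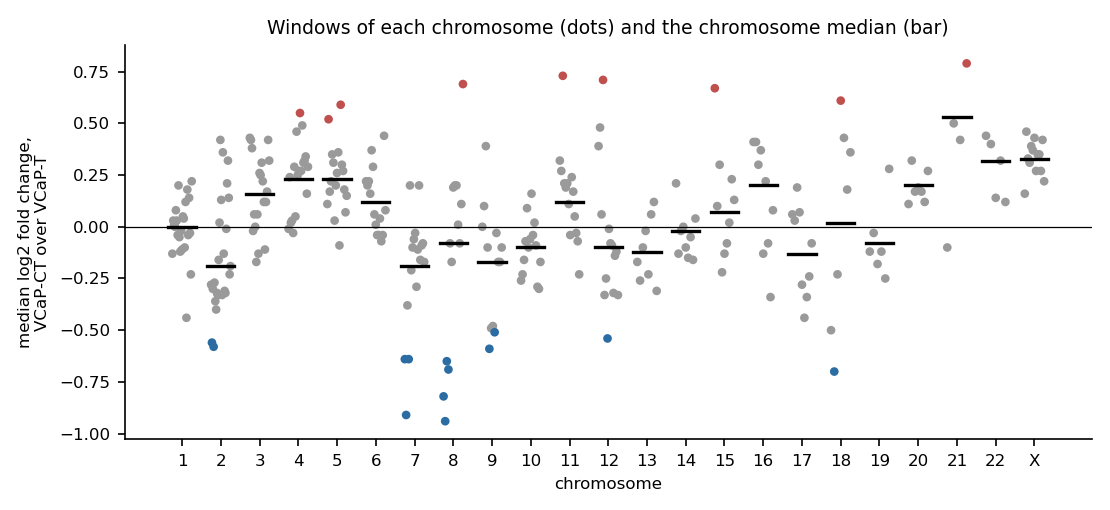
Median log2 fold change (y axis, VCaP-CT over VCaP-T) of windows of 10 Mb with at least 20 tested genes (dots, in order along each chromosome) and of whole chromosomes (black bars). Red dots are the 9 windows over 0.5 and blue dots the 13 under −0.5: blue dots gather at the start of chromosomes 7 and 8, and chromosome 21 has the highest bar.

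The antiandrogen-resistant sublines, all derived from VCaP-CT, are given as means of 3 libraries beside these results and were not compared here. KLK3, at 33.2 CPM in VCaP-CT, was at 14.1 CPM in VCaP-CT-BR, 40.04 in VCaP-CT-BR-ER and 521 in VCaP-CT-ER. FKBP5 was at 137 CPM in VCaP-CT-BR, 160.3 in VCaP-CT-BR-ER and 250.3 in VCaP-CT-ER. TMPRSS2 was at 96.8 CPM in VCaP-CT-BR, 102 in VCaP-CT-BR-ER and 88.5 in VCaP-CT-ER, under its VCaP-T level of 651 CPM in each. CST2 was at 1.21 CPM in VCaP-CT-BR, 1.02 in VCaP-CT-BR-ER and 0.272 in VCaP-CT-ER, and HPGD at 63.7 CPM in VCaP-CT-BR, 110.5 in VCaP-CT-BR-ER and 233 in VCaP-CT-ER. GDF15, at 1226 CPM in VCaP-T, was at 2.62 CPM in VCaP-CT-BR, 11.8 in VCaP-CT-BR-ER and 44.2 in VCaP-CT-ER, and NR3C1, at 46.2 CPM there, was at 4.79 CPM in VCaP-CT-BR, 1.502 in VCaP-CT-BR-ER and 5.497 in VCaP-CT-ER. CHGB was at 0.607 CPM in VCaP-CT-BR, 0.717 in VCaP-CT-BR-ER and 1.27 in VCaP-CT-ER. MGP, at 119.9 CPM in VCaP-CT, was at 12.8 CPM in VCaP-CT-BR, 41.9 in VCaP-CT-BR-ER and 32.2 in VCaP-CT-ER.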

How the data were processed

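RNA of 5 VCaP sublines was sequenced as paired reads, with 3 libraries each. The authors aligned the reads with STAR 2.5.4b to GRCh38 and counted fragments with featureCounts 1.6.2 on the exons of each gene of GENCODE release 28, without regard to strand. The deposited values are raw counts for 58381 genes, without normalization. Genes that overlap on opposite strands therefore share counts, and some genes that most cells express, such as HLA-B, TAP1, RPS18 and VIM, were at or near 0 counts in all 6 libraries. Gene names of GENCODE release 44 were joined by Ensembl identifier, and 57754 genes (98.93%) with 99.84% of the counts matched. Groups came from the sample titles, and positions are those of the counting annotation.

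Differential expression was computed from the deposited counts with edgeR 4.0.16 in R 4.3.3: 19621 genes passed filterByExpr with a minimum count of 10, libraries were scaled by TMM, and 1 term per subline was fitted to all 15 libraries, followed by two-sided quasi-likelihood F tests with 10 residual degrees of freedom and Benjamini-Hochberg adjustment over all genes tested. Genes with an adjusted p under 0.05 were called. The fitted biological coefficient of variation was 0.0609. Changes over 2-fold were tested with glmTreat. CPM are counts per 1000000 fragments of the library size after TMM scaling. Where a group had 1 to 3 counts in its best library, the ratio of summed counts was given with its exact interval. That interval leaves out the spread between libraries. No pair of replicates agreed within sampling noise, with a chi-square per degree of freedom between 6.05 and 20.3.

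Tested on simulated counts for this comparison of 19621 genes, the fit recovered 36, 40, 48 and 50 of 50 genes changed by log2 folds of 0.585, 1, 2 and 3, with 14 false calls among the others and 0 calls where nothing was changed. The simulation changed few genes, evenly up and down, and gave genes of like level the same spread. It therefore does not test scaling or error rates for the real comparison, where 65.3% of genes were called. The gene lists, the 317 genes picked by rule and the comparison itself were chosen with earlier results of these data known. The rule named KLK3 and 15 other markers whatever their values, of which some are not reported here. It added the 12 protein-coding genes that rose most and the 12 that fell most without overlap at a mean log2 CPM of at least 1, the 8 genes that gained and the 8 that lost most CPM, up to 4 risers and 4 fallers per list at a mean log2 CPM of at least 0, and genes of the extreme windows. Other genes named in the text were chosen after their values were seen. Alternatives were DESeq2 1.42.0, other filters and scalings, protein-coding genes alone, a fit of the 6 libraries, the replicate block, the 2-fold test and each library left out in turn. Promoter windows came from RefSeq. Tables and figures were made with Python 3.11.15, numpy 2.4.6, pandas 2.3.3 and matplotlib 3.10.9.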

Additional observations from a re-analysis of the deposited data

How the results depend on the processing

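The counts of 6502 higher and 6319 lower genes lay between 5154 and 6938 and between 4889 and 6791 under the other filters, scalings, DESeq2, the 6 libraries alone, the replicate block and protein-coding genes alone, which gave both lowest counts because fewer genes were tested. They lay between 5992 and 6230 and between 6128 and 6292 with 1 library left out. The test against a 2-fold change called 826 and 1612. Blocking on the replicate number gave 6442 and 6285, and with that replicate block no call of the 317 genes picked by rule changed. With the block and only the 6 libraries they were 5526 and 5599, and 10 of the 317 calls were lost. Same-numbered libraries correlated at −0.000, −0.429 and −0.285 in their deviations from the subline means across 15255 genes. Different-numbered libraries correlated at −0.092 to 0.366. Deviations from a mean of 3 libraries depend on each other and cannot settle whether same-numbered libraries share a culture or batch. The labels do not say, and no pairing was used in the main fit. Over the 2-fold threshold the count of higher genes fell to 472 with at least 10 counts in every library and to 509 with DESeq2, and lay between 750 and 819 with 1 library left out. The count of lower genes fell to 883 with at least 10 counts in every library, a filter that drops genes near 0 in 1 subline. With DESeq2 that count fell to 1244, and it lay between 1591 and 1635 with 1 library left out. The same filter took the secretory, neuroendocrine, mesenchymal and androgen synthesis genes over 2-fold lower from 11, 17, 7 and 8 to 6, 8, 3 and 3, partly because fewer were tested. No gene picked by rule changed direction. KLK4 passed in 6 alternatives (adjusted p between 0.02 and 0.0474), and the calls of SLC45A3 and ACP3 were lost in several. Depth limited statements on genes near the floor of 3 counts, and a single derivation per subline limited all of them.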

Other observations

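Other gene groups are given beside the 33.1% of all tested genes that rose and the 32.2% that fell, and several lay near those shares. Of 23 tested HOX genes, which set position along the body axis, 14 fell and 3 rose, 4 fell and none rose by more than 2-fold, and the median was −0.45. HOXB7 stood at 5.84, 5.25 and 6.38 CPM in the VCaP-T libraries and 1.21, 0.683 and 0.615 CPM in the VCaP-CT libraries (log2 fold change −2.81 ± 0.18 (SE), adjusted p = 1.93e-11). HOXC12 fell from 4.39 to 0.144 CPM (log2 fold change −4.90 ± 0.25 (SE), adjusted p = 3.53e-13). Both lay lower in every VCaP-CT library, whereas HOXA13, the paralog of HOXB13 in the A cluster, was at 59.1 and 61.1 CPM (adjusted p = 0.486). Of 19 clock genes, 12 fell and 2 rose, with NPAS2 (from 4.74 to 0.923 CPM, log2 fold change −2.36) and BMAL1 (from 7.21 to 3.94 CPM, log2 fold change −0.87) lower and BHLHE41 (from 22.9 to 35.8 CPM, log2 fold change 0.65) higher, and CLOCK at 28.9 and 27.4 CPM (adjusted p = 0.337).

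Interferon-stimulated genes showed no common direction, with 12 of 33 higher, 10 lower and a median of −0.01. ISG20 stood at 17.6, 16.9 and 17.2 CPM in the VCaP-T libraries and 0.453, 0.598 and 0.475 CPM in the VCaP-CT libraries (log2 fold change −5.07 ± 0.13 (SE), adjusted p = 4.73e-18) and OAS1 fell from 18.7 to 6.23 CPM, while SP110 rose from 0.607 to 3.97 CPM and SAMHD1 from 24.5 to 43.6 CPM. SP110 shares 20.9% of its exon sequence with genes of the other strand. Of 11 tested MHC class I genes 8 rose and 2 fell, but HLA-B, HLA-C, TAP1 and TAP2 were at or near 0 counts in all 6 libraries and were not tested. CALR, CANX and PDIA3 are counted in this list and among the genes for folding in the endoplasmic reticulum. ERAP2, which trims antigenic peptides, rose from 6.83 to 17.00 CPM (log2 fold change 1.31 ± 0.08 (SE), adjusted p = 6.14e-12), and B2M fell from 27.7 to 17.6 CPM.

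Among regulators of chromatin, 12 of 22 genes of PRC2 and DNA methylation rose and 5 fell. EZH2, the methyltransferase of PRC2, fell from 48.6 to 31.05 CPM (log2 fold change −0.65 ± 0.06 (SE), adjusted p = 2.74e-09), while JARID2, which recruits PRC2, rose from 9.05 to 23.1 CPM (log2 fold change 1.35 ± 0.10 (SE), adjusted p = 8.72e-11), KDM6A, which removes its mark, from 58.02 to 107 CPM, and the DNA demethylase TET1 from 3.95 to 9.56 CPM. Of 28 apoptosis genes 10 rose and 10 fell, near the shares of all genes. The death receptors TNFRSF10A and TNFRSF10B fell from 14.7 to 3.91 CPM and from 60.3 to 17.9 CPM, BBC3 (PUMA) from 18.5 to 6.88 CPM, and BCL2 rose from 1.52 to 3.902 CPM (log2 fold change 1.34 ± 0.16 (SE), adjusted p = 1.87e-07).

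Of 21 tested prostate long noncoding RNAs 9 rose and 6 fell. MALAT1, a nuclear RNA, stood at 994, 739 and 655 CPM in the VCaP-T libraries and 938, 1441 and 3453 CPM in the VCaP-CT libraries, and NEAT1, the scaffold of paraspeckles, at 1869, 1827 and 1903 CPM in the VCaP-T libraries and 2579, 3112 and 4092 CPM in the VCaP-CT libraries. Replicate 3 of VCaP-CT was the highest of the 6 libraries for both, and the groups overlapped for MALAT1. DRAIC fell from 113 to 77.04 CPM, PCAT14 rose from 277 to 423 CPM, and SCHLAP1 was low in both sublines (from 1.45 to 0.419 CPM). Of 16 tested genes for metallothioneins and zinc transport 6 fell and 5 rose. SLC39A6 rose from 262 to 459 CPM and SLC30A4 from 128 to 226 CPM, and MT2A fell from 36.8 to 28.7 CPM. Of 37 tested histone genes 17 rose and 8 fell. Histone transcripts of the replication-dependent class lack a poly(A) tail and were mostly at a few CPM.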
